A study of Mus musculus with 30 samples.

Results

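The IGF axis genes examined here were Igf1, Igf2, H19, Igf1r, Igf2r, Igfbp3, Igfbp4, Igfbp5, Igfbp6 and Igfbp7, chosen by name and matched to their Ensembl identifiers, 10 of the 53431 genes in the count table. They were followed in CT-26 and Colon 26, mouse colon carcinoma lines, as cells in culture and as tumors implanted in female BALB/c mice, at the right flank. Poly-A RNA was sequenced from 3 cultures and 12 tumors of each model, the tumors being taken at nominal sizes of 100, 400 and 800 mm3 with 4 tumors per size. The 24 tumors had measured volumes of 102.9 to 963.18 mm3 and fell into 6 groups, which with the 2 culture groups gave 8 groups and 30 libraries. No label names a gene alteration, or an antibody given to any sequenced tumor, and the animals' ages are not given in the labels. Each model is a single line. The tumors also hold cells of the host, which the cultures lack, so in these bulk libraries fewer cells of a type and less RNA per cell cannot be told apart.

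Insulin-like growth factors 1 and 2 are secreted peptides that signal growth and survival through the receptor tyrosine kinase IGF1R. IGF2R, the cation-independent mannose 6-phosphate receptor, takes up IGF2 and carries it to lysosomes, and it also sorts lysosomal enzymes. IGF-binding proteins hold the ligands outside the cell and either limit or prolong their access to the receptor, and in tumors they come from carcinoma cells, fibroblasts and vessels alike. Igf2 and H19 are neighboring imprinted genes, the first expressed from the paternal and the second from the maternal copy, and Igf2r is imprinted in the mouse as well.

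The sequences of H19 and of 3 binding proteins are shown first because these genes were at or near the detection limit in culture and detected in tumors. H19 lies on chromosome 7 (GRCm38, chr7:142575529-142578143, minus strand) and is a long noncoding RNA. A hairpin in one of its exons gives miR-675, whose mature arms are written here from RefSeq (GRCm38.p6) with the seed, bases 2 to 8, in capitals. The 3p arm lies at chr7:142577078-142577099 and the 5p arm at chr7:142577112-142577133, both on the minus strand. The libraries counted H19 as a gene and do not measure these small RNAs.
mmu-miR-675-5p: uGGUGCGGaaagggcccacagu
mmu-miR-675-3p: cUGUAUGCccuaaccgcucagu

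Igfbp3, Igfbp5 and Igfbp7 were among the genes that were called higher in tumors than in culture in both models, and the 250 bases before their start sites are given from RefSeq (GRCm38.p6, minus strand in each case), with each CG pair in capitals. The windows lie at chr11:7213924-7214173 for Igfbp3, chr1:72874866-72875115 for Igfbp5 and chr5:77408046-77408295 for Igfbp7. CG was searched as these 2 letters, which read the same on both strands.
Igfbp3: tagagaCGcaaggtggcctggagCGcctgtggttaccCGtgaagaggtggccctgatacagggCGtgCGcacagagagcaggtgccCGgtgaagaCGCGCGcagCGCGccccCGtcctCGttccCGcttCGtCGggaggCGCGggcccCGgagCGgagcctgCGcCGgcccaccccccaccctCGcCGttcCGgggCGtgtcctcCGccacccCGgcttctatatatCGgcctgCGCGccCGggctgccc
Igfbp5: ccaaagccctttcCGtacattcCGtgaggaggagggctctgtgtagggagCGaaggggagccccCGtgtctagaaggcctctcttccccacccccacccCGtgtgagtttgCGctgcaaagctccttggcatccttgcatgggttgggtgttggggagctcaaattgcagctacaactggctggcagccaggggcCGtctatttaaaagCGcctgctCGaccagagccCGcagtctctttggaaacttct
Igfbp7: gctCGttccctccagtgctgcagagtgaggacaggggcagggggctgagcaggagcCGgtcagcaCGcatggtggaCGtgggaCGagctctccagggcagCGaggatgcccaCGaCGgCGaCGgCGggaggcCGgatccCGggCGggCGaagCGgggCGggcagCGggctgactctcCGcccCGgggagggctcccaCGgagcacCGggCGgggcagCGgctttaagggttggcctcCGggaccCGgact
Igfbp3 had 32 CG pairs, Igfbp7 had 26 and Igfbp5 had 10. Igf1, also low in culture and called higher in tumors of both models, had 5. Igf2, close to the detection limit in all libraries, had 1, 10, 22 and 6 before its separate start sites. The median over 32851 such windows was 6.0, and 37.8% of them held 10 or more. Of the genes that were well above the detection limit in culture, Igf1r had 42, Igf2r 27, Igfbp4 22 and Igfbp6 7, so the ranges of the genes low and high in culture overlapped. H19 had no entry among the promoters. These counts describe the letters alone, since DNA methylation was not measured.

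The libraries held 21384697 to 39722554 counts. Going by the library numbers in the labels, the CT-26 cultures, the Colon 26 cultures and the tumors form separate runs of numbers, and the Colon 26 cultures had the highest totals. The number run cannot therefore be told apart from the model in culture, nor from the step from culture to tumor in either model. What the runs stand for is not labelled. No label says that replicates came from separate cultures or which animal a tumor came from, though each tumor library has its own measured volume. The p-values measure the spread between these samples, which in culture may be technical. Of 10 markers of colon epithelium, 5 exceeded 3 counts in at least 1 CT-26 culture and 4 in at least 1 Colon 26 culture, while Epcam and Cdx1 were at 0 in both and Cdh1 was within 3 counts in every culture. They summed to 41.2 to 42.7 CPM (counts scaled to library size) in the CT-26 cultures and 11.3 to 12.1 in the Colon 26 cultures. The sums were 117 to 254 CPM in CT-26 tumors and 12.3 to 43.5 in Colon 26 tumors, with 7 or 8 of the 10 above 3 counts in each group. The labelled origin is thus shown by these markers only in part. The summed CPM of 10 skeletal muscle markers was 2.35 to 2.90 in the 6 cultures but ran from 2.17 to 3400.04 in the tumors, 7 of which were above 300, a limit chosen after seeing the data.

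A gene was called at an adjusted p of 0.1 or less together with a log2 fold change of at least 1 in size, in edgeR's quasi-likelihood test with Benjamini-Hochberg adjustment over all genes tested. All adjusted p-values below are from that test, and fold changes between models are given as Colon 26 over CT-26. Between the cultures, 2 of the 4 members that passed the filter on low counts were called, against 22.9% of all genes tested. In tumors of 100 mm3 none of 10 was called, against 13.2% of all genes, and DESeq2 called 0. An unadjusted p under 0.05 was found there for 3 members, and for 8543 of all 15406 genes tested. In tumors of 400 mm3 1 of 9 was called, against 14.3%, and in tumors of 800 mm3 2 of 9, against 14.1%. From culture to tumors of 100 mm3, 6 of 9 members were called higher and 0 lower in CT-26, against 32.2% of all genes called in either direction. In Colon 26, 6 of 10 were called higher and 1 lower, against 26.9% in either direction. The members called higher stand against 22.2% of all genes called higher in CT-26 and 20.8% in Colon 26, and those called lower against 10.1% and 6.11%. The median log2 fold change of the members tested was 5.06 in CT-26 and 3.29 in Colon 26, where the medians over all genes tested were 0.06 and 0.05. Members at the detection limit in culture passed the filter only through the tumors, so these shares and medians describe which members were measured and support nothing further. Groups did not overlap for 4 of 4 members tested between the cultures, against 79.7% of all genes tested, and for 3 of 10, 4 of 9 and 4 of 9 in tumors of 100, 400 and 800 mm3, against 47.9%, 43.5% and 48.3%. From culture to tumor they did not overlap for 9 of 9 in CT-26, against 72.4%, and 9 of 10 in Colon 26, against 75%. Here too members at the detection limit in culture entered only through the tumors, so these shares from culture to tumor support nothing further. The comparisons share groups with each other and are not independent.

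**Figure D1:**
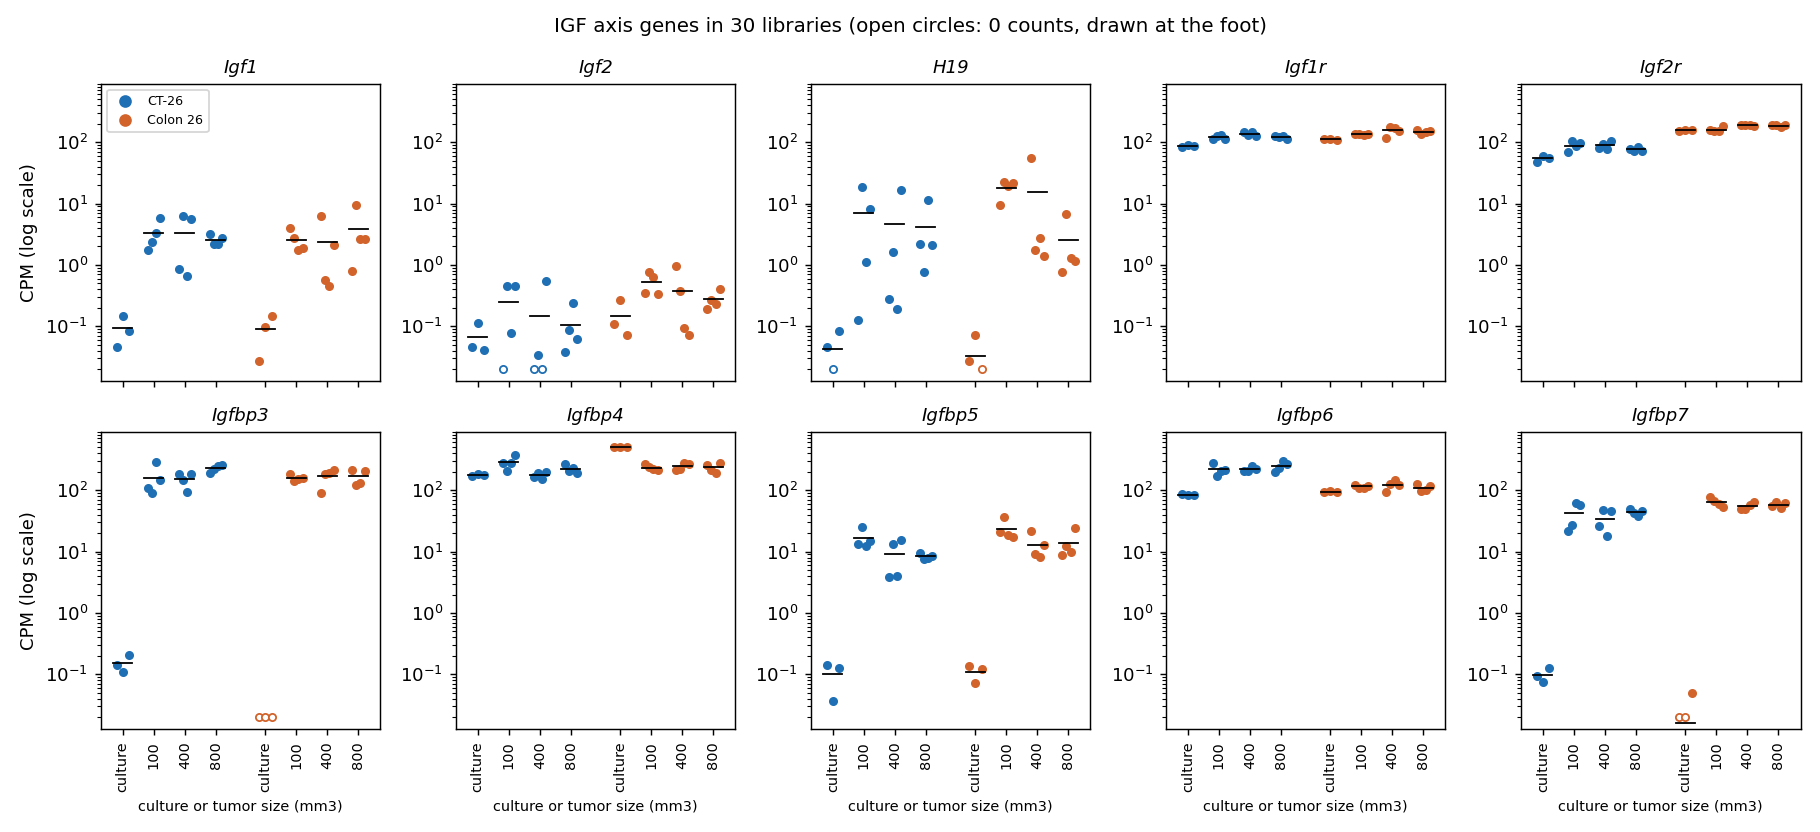
Level of each of the 10 IGF axis genes in CPM in the 30 libraries, on a log axis, by model, culture and tumor size in mm3, with each point a library and each bar the group mean. Igf1, H19, Igfbp3, Igfbp5 and Igfbp7 are near the foot of the axis in culture and higher in every tumor group, Igf2r is higher in Colon 26 throughout, and Igfbp6 is higher in CT-26 tumors.

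Igf1, the ligand made largely by liver and by stromal cells, gave 1 to 4 counts in CT-26 cultures and 1 to 6 in Colon 26 cultures. In CT-26 tumors its CPM was 1.77, 2.35, 3.35 and 5.84 at 100 mm3, 0.868, 6.17, 0.653 and 5.60 at 400 mm3 and 3.18, 2.18, 2.16 and 2.71 at 800 mm3. In Colon 26 tumors it was 3.94, 2.78, 1.76 and 1.90 at 100 mm3, 6.17, 0.569, 0.462 and 2.13 at 400 mm3 and 0.798, 9.56, 2.61 and 2.66 at 800 mm3. Every tumor lay above every culture, and neighboring tumor groups in the order of means overlapped throughout. The log2 difference of tumors of 100 mm3 from culture was 5.06 (SE 0.61, adjusted p = 1.2e-04) in CT-26 and 4.78 (SE 0.49, adjusted p = 2.1e-05) in Colon 26. Between models Igf1 was not called at any tumor size, with adjusted p of 0.48, 0.7 and 0.4. Its levels varied over a 9.46-fold range among CT-26 tumors and a 20.7-fold range among Colon 26 tumors, more than any difference between group means of the tumors.

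Igf2, the fetal ligand, was close to the detection limit in all libraries. CT-26 cultures gave 1, 3 and 1 counts and Colon 26 cultures 4, 11 and 3. In 8 of 12 CT-26 tumors it had 3 counts or fewer, and the highest CPM of any library was 0.977, in a Colon 26 tumor. All neighboring groups in its order overlapped. It was called higher in Colon 26 tumors of 100 mm3 than in culture, with a log2 difference of 1.80 (SE 0.50, adjusted p = 0.0096). The summed skeletal muscle markers, of which all 10 exceeded 3 counts in at least 1 of these tumors and 3 of 10 in at least 1 Colon 26 culture, were 2.35 to 2.67 CPM in those cultures and 154 to 1774 CPM in the tumors. Igf2 correlated with the muscle sum at r = 0.70 over the 24 tumors, 0.93 within CT-26 and 0.74 within Colon 26, on a log scale. Without the 2 tumors farthest from the median muscle sum, r was 0.59, 0.90 and 0.49 in turn. Other lists gave values of like size in some of these sets, with 0.69, 0.70 and 0.28 for pericyte markers. For macrophage markers the values were 0.63, 0.53 and 0.57. The part of muscle RNA, or of RNA of these other cells, in the level of Igf2 was not tested. The annotation places Gm49394 on the same strand and Igf2os on the opposite strand over Igf2 (chr7:142650766-142666816, minus strand), so its few reads may be shared with them.

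H19 was at or under 3 counts in all 6 cultures. In CT-26 tumors its CPM was 0.127, 18.9, 1.13 and 8.21 at 100 mm3, 0.276, 1.64, 0.192 and 16.4 at 400 mm3 and 2.23, 0.764, 11.5 and 2.15 at 800 mm3. In Colon 26 tumors it was 9.34, 22.1, 19.1 and 21.6 at 100 mm3, 55.0, 1.78, 2.71 and 1.41 at 400 mm3 and 0.767, 6.84, 1.29 and 1.14 at 800 mm3. Single tumors stood far above the others of their group, such as the first Colon 26 tumor of 400 mm3, while in Colon 26 tumors of 100 mm3 all 4 were high. Tumors of 100 mm3 were at least 56.5-fold higher than culture in CT-26 (adjusted p = 0.01) and at least 239-fold higher in Colon 26 (adjusted p = 1.0e-06), taking 3 counts per library as the limit in culture.

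The first Colon 26 tumor of 400 mm3, with the highest H19, also had the highest muscle marker sum. In order of replicate, the sums were 3.04, 344, 51.8 and 727 CPM in CT-26 tumors of 100 mm3, 2.17, 3.27, 2.57 and 408 at 400 mm3 and 62.4, 15.1, 339 and 25.5 at 800 mm3. In Colon 26 they were 274, 1774, 154 and 338 at 100 mm3, 3400.04, 6.86, 9.91 and 3.61 at 400 mm3 and 3.39, 3.26, 3.21 and 3.47 at 800 mm3. All 10 markers exceeded 3 counts in at least 1 tumor of each group other than Colon 26 at 800 mm3, where Myh4 and Myh1 were within 3 counts and Pvalb was at 0, as it was in both culture groups. Across the 24 tumors the correlation of H19 with the muscle sum on a log scale was r = 0.86 (Spearman rho = 0.84), and within the 12 tumors of a model it was 0.92 (rho = 0.89) in CT-26 and 0.91 (rho = 0.85) in Colon 26. Without the 2 tumors farthest from the median muscle sum, r was 0.81, 0.91 and 0.86 in turn. The points share library depth and scaling, and the tumors of a model share their line. An exception was the second Colon 26 tumor of 800 mm3, with H19 at 6.84 CPM and a muscle sum of 3.26 CPM. The part of muscle RNA in the level of H19 was not tested.

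**Figure D2:**
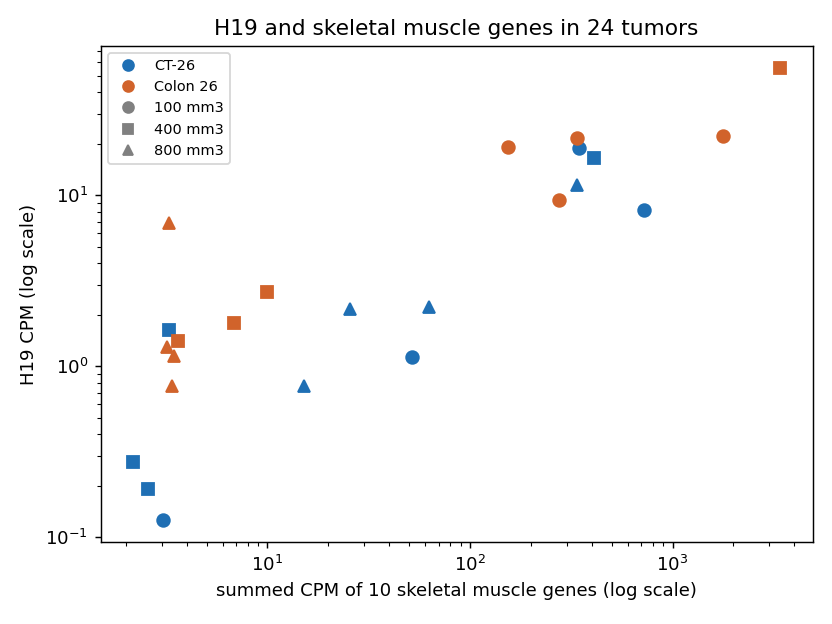
H19 against the summed level of 10 skeletal muscle markers, both in CPM on log axes, for the 24 tumors, with color for the model and marker shape for tumor size. The 7 tumors with a muscle sum above 300 CPM have H19 of 8.21 to 55.0 CPM, and the Colon 26 triangle at 6.84 CPM stands above the others of low muscle sum.

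From 100 to 800 mm3 H19 was called lower in Colon 26, with a log2 difference of -2.83 (SE 0.62, adjusted p = 0.049), and the groups did not overlap. It was the only member called in any of the 4 comparisons of tumor size. In Colon 26 from 100 to 800 mm3, 1.33% of all genes were called, and 1.16% were called lower. The call was lost without Colon 26 replicate 2, 3 or 4 of 100 mm3 or replicate 3 or 4 of 800 mm3, where the log2 difference was -2.80 to -2.60 (adjusted p from 0.1 to 0.12). It was lost as well with all 30 libraries in one fit, at the same difference of -2.83 (adjusted p = 0.28). Without the tumors with muscle sums above 300 CPM the log2 difference was -2.49 (adjusted p = 0.28). That fit kept replicates 1 and 3 of 100 mm3, with muscle sums of 274 and 154 CPM, against 3.21 to 3.47 CPM at 800 mm3. From 100 to 400 mm3 in Colon 26, where 0.0131% of all genes were called, H19 differed by -0.24 and was not called, but without the first Colon 26 tumor of 400 mm3 the difference was -3.20 (adjusted p = 0.0052). In that fit 391 of all genes were called, against 2 with the tumor kept.

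Between models H19 was not called, with log2 differences of 1.32 (SE 0.93, adjusted p = 0.28) at 100 mm3, 1.74 (SE 1.55, adjusted p = 0.39) at 400 mm3 and -0.72 (SE 0.86, adjusted p = 0.52) at 800 mm3. Single libraries decided these values. At 100 mm3 the difference was 2.47 (adjusted p = 0.051) without CT-26 replicate 2, past the thresholds. Without the muscle-rich tumors it was 4.48 (adjusted p = 0.026), also past them, but that fit kept only replicates 1 and 3 of each model. Their muscle sums were 3.04 and 51.8 CPM in CT-26 and 274 and 154 CPM in Colon 26. The models thus still differed in muscle sum, and the difference in H19 at equal muscle sums was not tested. At 400 mm3 it was 4.40 (adjusted p = 0.068) without the fourth CT-26 tumor, and -1.21 (adjusted p = 0.49) without the first Colon 26 tumor. At 800 mm3 it was 0.56 (adjusted p = 0.57) without the third CT-26 tumor and -1.95 (adjusted p = 0.083) without the second Colon 26 tumor.

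Igf1r, the signaling receptor, varied over a 1.32-fold range among CT-26 tumors and a 1.51-fold range among Colon 26 tumors. Its mean was 86.6 ± 2.57 in CT-26 and 112 ± 1.86 CPM in Colon 26 cultures (SD, n = 3). In CT-26 tumors it was 121 ± 9.20, 138 ± 11.5 and 122 ± 7.27 CPM at 100, 400 and 800 mm3 (SD, n = 4). In Colon 26 tumors it was 136 ± 2.53, 156 ± 27.0 and 147 ± 9.47 CPM (SD, n = 4). Colon 26 was higher with an adjusted p at most 0.1 in culture, by 0.42 (SE 0.03, adjusted p = 3.0e-09), at 100 mm3, by 0.16 (SE 0.06, adjusted p = 0.054), and at 800 mm3, by 0.26 (SE 0.07, adjusted p = 0.0074), always below the log2 difference of 1 needed for a call. At 400 mm3 the difference was 0.17 (SE 0.13, adjusted p = 0.31). Tumors of 100 mm3 were higher than culture by 0.49 (SE 0.07, adjusted p = 4.8e-04) in CT-26 and by 0.28 (SE 0.03, adjusted p = 3.5e-05) in Colon 26 on the log2 scale. In the order of the group means, the 2 culture groups were lowest and did not overlap each other.

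Igf2r, the scavenger of IGF2, separated the models in every setting. In culture its CPM was 48.3, 58.9 and 55.8 in CT-26 and 155, 155 and 160.2 in Colon 26. CT-26 tumors had 68.0, 103, 85.9 and 95.9 at 100 mm3, 81.7, 94.9, 77.3 and 105 at 400 mm3 and 78.9, 72.7, 82.3 and 72.7 at 800 mm3. Colon 26 tumors had 157, 149.6, 150.02 and 181 at 100 mm3, 192, 189, 191 and 184 at 400 mm3 and 188, 189, 177 and 192 at 800 mm3. All 15 Colon 26 libraries were above all 15 CT-26 libraries. The log2 difference was 1.58 (SE 0.05, adjusted p = 2.5e-14) in culture, 1.08 (SE 0.09, adjusted p = 4.2e-05) at 400 mm3 and 1.28 (SE 0.06, adjusted p = 2.9e-07) at 800 mm3, all called. At 100 mm3 it was 0.84 (SE 0.13, adjusted p = 6.5e-04), past the adjusted p but not the log2 difference of 1. Without the muscle-rich tumors it was 1.02 (adjusted p = 0.013) and called, in a fit with only replicates 1 and 3 of each model.

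Igf2r was higher in CT-26 tumors of 100 mm3 than in culture by 0.71 (SE 0.15, adjusted p = 0.0029) on the log2 scale, and differed by 0.03 (SE 0.06, adjusted p = 0.73) in Colon 26. The difference between models was thus smaller in tumors of 100 mm3 than in culture by 0.73 on the log2 scale (SE 0.17, adjusted p = 0.0035), a change that passed the adjusted p but not the fold needed for a call. No exon of Igf2r (chr17:12682406-12769664, minus strand) overlapped an exon of another annotated gene. Airn, the antisense RNA that starts inside Igf2r and is known for silencing the paternal copy, was low but also called higher in Colon 26, by 1.88 in culture (SE 0.38, adjusted p = 2.5e-04) and by 1.18, 1.64 and 1.73 in tumors of 100, 400 and 800 mm3 on the log2 scale (adjusted p = 0.016, 0.0059 and 9.9e-04). Its group means were 0.242 to 0.530 in CT-26 and 0.845 to 1.66 CPM in Colon 26. Since Airn starts inside Igf2r and the strand handling of the counts is not given, its few reads may be shared with Igf2r. This was not tested.

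Set per length in FPKM (fragments scaled to transcript length and library size), Igf2r and Igf1r were at different ratios in the models. The ratio of Igf2r to Igf1r FPKM was 0.742 to 0.853 in CT-26 cultures and 0.674 to 1.09 in CT-26 tumors, and 1.75 to 1.86 in Colon 26 cultures and 1.35 to 2.07 in Colon 26 tumors. The ranges of the models did not overlap. In every Colon 26 library Igf2r had the higher FPKM of the receptors.

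**Figure D3:**
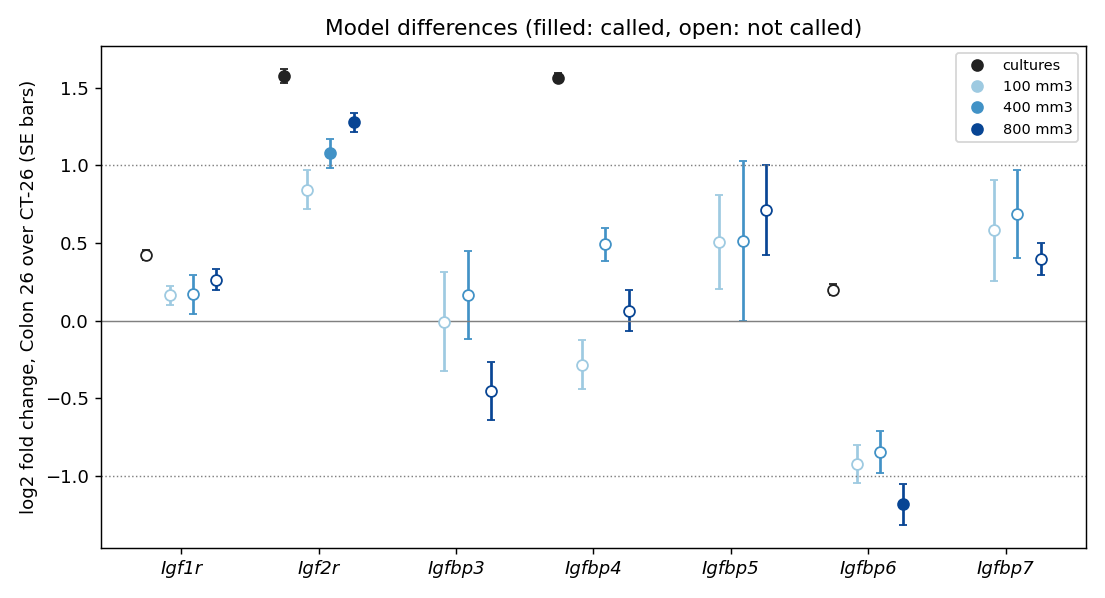
Log2 fold change of Colon 26 over CT-26 from edgeR for the IGF axis genes tested, in culture and in tumors of 100, 400 and 800 mm3, with bars of 1 SE, filled points called and dotted lines at a log2 fold change of 1 in either direction. Igf2r lies above 0 in all 4 comparisons and Igfbp6 below 0 in the 3 of tumors, while Igfbp4 is above 1 in culture alone. Igf1, Igf2 and H19 are not drawn.

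The binding proteins differed in where they were detected. Igfbp4 and Igfbp6 were expressed by the cultured cells of both models, while Igfbp3, Igfbp5 and Igfbp7 were at or near 0 in culture. On the FPKM scale, cultures had means of 60.6 for Igfbp4 and 75.8 for Igfbp6 in CT-26, and 167 and 87.9 in Colon 26. Over the 12 tumors of each model, Igfbp6 had a mean FPKM of 202 in CT-26 and 106 in Colon 26, Igfbp3 74.6 and 71.0, Igfbp4 65.1 and 66.4, Igfbp7 35.5 and 53.8, and Igfbp5 1.87 and 2.85. The ligand Igf1, on the same scale, had means of 0.827 and 0.869.

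Summed over the 5 binding proteins, the FPKM was 134 to 139 in CT-26 cultures and 281 to 462 in CT-26 tumors. It was 250.1 to 264 in Colon 26 cultures and 239 to 341 in Colon 26 tumors. Igfbp6 made up 54.2% to 57.4% of that sum in CT-26 cultures and 42.0% to 67.7% in CT-26 tumors, but 34.0% to 34.9% in Colon 26 cultures and 32.2% to 38.6% in Colon 26 tumors. Igfbp4 made up 65.1% to 66.0% of the sum in Colon 26 cultures and 20.7% to 25.5% in Colon 26 tumors.

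**Figure D4:**
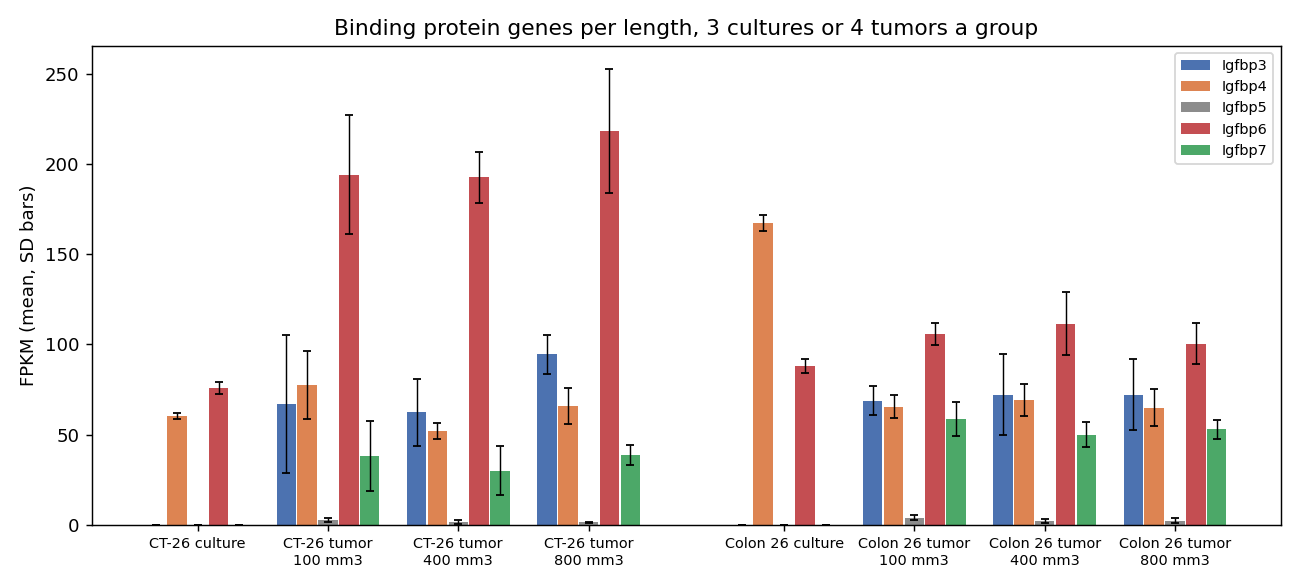
Mean FPKM of the 5 binding proteins as bars side by side in each of the 8 groups, with error bars of 1 SD (3 cultures or 4 tumors a group). Cultures hold almost only Igfbp4 and Igfbp6, with Igfbp4 the larger in Colon 26, and tumors add Igfbp3 and Igfbp7 while Igfbp6 has the highest mean of the 5 in every tumor group.

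Igfbp4, a soluble inhibitor of IGF action that PAPP-A cleaves, had CPM of 169, 186 and 177 in CT-26 cultures and 505, 507 and 512 in Colon 26 cultures. CT-26 tumors had 277, 207, 282 and 369 at 100 mm3, 162, 188, 155 and 195 at 400 mm3 and 270.02, 206, 232 and 192 at 800 mm3. Colon 26 tumors had 265, 238, 219 and 216 at 100 mm3, 214, 224, 279 and 265 at 400 mm3 and 256, 216, 195 and 277 at 800 mm3. The Colon 26 cultures lay above every other library, and tumors of the models overlapped at 100 and 800 mm3 but not at 400 mm3. The log2 difference between models was 1.57 (SE 0.03, adjusted p = 2.5e-16) in culture, -0.28 (SE 0.16, adjusted p = 0.16) at 100 mm3, 0.49 (SE 0.11, adjusted p = 0.0059) at 400 mm3 and 0.06 (SE 0.13, adjusted p = 0.72) at 800 mm3, and only that in culture was called.

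From culture to tumors of 100 mm3 Igfbp4 fell in Colon 26, with a log2 difference of -1.11 (SE 0.07, adjusted p = 7.3e-07), the only member called lower there. In CT-26 the log2 difference was 0.68 (SE 0.16, adjusted p = 0.0054), higher in the tumors. The change of the model difference from culture to tumor was -1.84 (SE 0.19, adjusted p = 3.7e-06) on the log2 scale, 1 of 2 members called of 10 in that test, where 17.6% of all genes were called.

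Igfbp6, which binds IGF2 in preference to IGF1, had CPM of 88.4, 84.9 and 82.4 in CT-26 cultures and 92.2, 97.4 and 93.1 in Colon 26 cultures. CT-26 tumors had 276, 174, 209 and 213 at 100 mm3, 207, 209.6, 250.4 and 218 at 400 mm3 and 199, 234, 295 and 272 at 800 mm3. Colon 26 tumors had 122, 111, 109.8 and 118 at 100 mm3, 93.8, 125, 149.7 and 124 at 400 mm3 and 128, 96.3, 100.5 and 117 at 800 mm3. Every CT-26 tumor was above every Colon 26 tumor, the reverse of the cultures, where all 3 Colon 26 values were the higher. The log2 difference was 0.20 (SE 0.04, adjusted p = 1.2e-04) in culture, -0.93 (SE 0.12, adjusted p = 3.1e-04) at 100 mm3, -0.85 (SE 0.13, adjusted p = 0.001) at 400 mm3 and -1.19 (SE 0.13, adjusted p = 4.4e-05) at 800 mm3, the last called. At 100 mm3 it was -1.02 (adjusted p = 1.1e-04) without the second CT-26 tumor and then passed the thresholds.

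Igfbp6 rose from culture to tumors of 100 mm3 in CT-26, by 1.36 (SE 0.13, adjusted p = 3.7e-05) on the log2 scale, and in Colon 26 the difference was 0.29 (SE 0.05, adjusted p = 4.4e-04). The change of the model difference was -1.11 (SE 0.15, adjusted p = 3.2e-05), and -0.97 (adjusted p = 5.0e-06) without the first CT-26 tumor of 100 mm3, which is under the fold needed for a call. With DESeq2, Igfbp3 and Igfbp7 were called in that test as well, with culture counts at or near 0, and without the third CT-26 tumor of 100 mm3 edgeR called Igfbp3 too, at 5.69 (adjusted p = 0.011). Among fibroblast markers Lum, Thy1 and Dpt were within 3 counts in every culture of both models, and 7 of 10 markers were above it in each. The fibroblast sum was 1174 to 1251 in CT-26 and 1377 to 1459 CPM in Colon 26 cultures, and 3198 to 4410.3 and 4733 to 5659.7 CPM in the tumors of 100 mm3, where all 10 exceeded 3 counts. Over the 24 tumors, within CT-26 and within Colon 26, the correlation with the fibroblast sum was 0.35, 0.55 and -0.08 for Igfbp4 and -0.69, -0.65 and -0.37 for Igfbp6. Igfbp6 thus ran against the fibroblast markers, but other lists did so too. It correlated with the leukocyte sum at -0.56, -0.57 and -0.58 and with the macrophage sum at -0.52, -0.30 and -0.75. With the sum of the colon epithelium markers it correlated at 0.95, 0.82 and 0.46. Without the 2 tumors farthest from the median of that sum, the values were 0.94, 0.74 and 0.06. Igfbp6 and the epithelium sum were both higher in CT-26 tumors, so the value over 24 tumors includes the model difference. The epithelium sum went from 41.2 to 42.7 CPM in CT-26 cultures to 139 to 185 CPM in CT-26 tumors of 100 mm3, and was 11.3 to 12.1 and 22.1 to 31.2 CPM in Colon 26. The part of any of these cell types in the levels of Igfbp4 and Igfbp6 was not tested.

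Igfbp3, the main carrier of IGFs in blood, gave 3, 3 and 5 counts in CT-26 cultures and 0 counts in each Colon 26 culture, and did not pass the filter there. CT-26 tumors had CPM of 108, 91.6, 288 and 149 at 100 mm3, 182, 144, 93.9 and 184 at 400 mm3 and 193, 221, 250.4 and 255 at 800 mm3. Colon 26 tumors had 185, 143, 152 and 158 at 100 mm3, 90.1, 183, 192 and 212 at 400 mm3 and 216, 120.02, 133 and 205 at 800 mm3. The tumor groups of the models overlapped at every size. Tumors of 100 mm3 were higher than culture by 9.99 (SE 0.70, adjusted p = 6.7e-06) on the log2 scale in CT-26, and at least 2111-fold higher in Colon 26 (adjusted p = 1.9e-08). Between models the adjusted p was 0.99 at 100 mm3, 0.66 at 400 mm3 and 0.064 at 800 mm3, where the log2 difference was -0.45.

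Igfbp7, a protein of vessel walls and matrix that binds IGFs weakly, was at or under 3 counts in all 6 cultures. CT-26 tumors had CPM of 21.5, 27.7, 62.5 and 58.5 at 100 mm3, 26.0, 48.0, 17.8 and 45.1 at 400 mm3 and 50.1, 42.4, 37.4 and 46.5 at 800 mm3. Colon 26 tumors had 77.3, 66.2, 60.6 and 52.4 at 100 mm3, 48.8, 49.6, 56.7 and 64.9 at 400 mm3 and 56.2, 64.3, 51.1 and 61.6 at 800 mm3. The tumors lay far above the cultures, and Colon 26 tumors lay above CT-26 tumors without overlap at 400 and 800 mm3. Tumors of 100 mm3 were at least 339-fold higher than culture in CT-26 (adjusted p = 1.2e-05) and at least 849-fold higher in Colon 26 (adjusted p = 9.4e-09). The log2 difference between models was 0.58 (SE 0.33, adjusted p = 0.17) at 100 mm3, 0.69 (SE 0.28, adjusted p = 0.08) at 400 mm3 and 0.40 (SE 0.10, adjusted p = 0.0083) at 800 mm3, none called. An exon of Polr2b overlaps Igfbp7 on the other strand, and Polr2b was at 105 to 142 CPM in the cultures, where Igfbp7 had no more than 3 counts.

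Igfbp5, a binding protein known for its high level in muscle and bone, gave 1 to 3 counts in CT-26 cultures and 3 to 5 in Colon 26 cultures. It was 13.2, 25.5, 12.3 and 14.9 CPM in CT-26 tumors of 100 mm3 and 20.7, 37.1, 18.9 and 17.4 CPM in Colon 26 tumors of that size, far above culture in each. At 400 and 800 mm3 it lay between 3.91 and 15.6 CPM in CT-26 and between 8.16 and 24.6 CPM in Colon 26. Tumors of 100 mm3 were at least 131-fold higher than culture in CT-26 (adjusted p = 5.4e-06), and higher by 7.72 (SE 0.44, adjusted p = 5.3e-07) on the log2 scale in Colon 26. Between models it was 0.71 (SE 0.29, adjusted p = 0.063) at 800 mm3, past the adjusted p but not called.

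The endothelial sum of 8 markers was 0.466 to 0.780 in CT-26 and 1.03 to 1.27 CPM in Colon 26 cultures, with Emcn and Tie1 within 3 counts in both and Emcn at 0 in Colon 26, and 83.3 to 269.8 and 122 to 200.3 CPM in the tumors, where all 8 exceeded 3 counts in each group. Over the 24 tumors Igfbp7 correlated with it at r = 0.63, and within the 12 of a model at 0.93 in CT-26 and 0.89 in Colon 26. Igfbp3 did so at 0.74, 0.85 and 0.40. Igfbp5 correlated with the fibroblast sum at 0.71, 0.66 and 0.64, and Igf1 with a sum of 8 adipocyte markers at 0.79, 0.73 and 0.82. Other lists gave values of like size in some of these sets. Igfbp5 correlated with the macrophage sum at 0.72, 0.76 and 0.52, with the leukocyte sum at 0.71, 0.75 and 0.52 and with the muscle sum at 0.60, 0.59 and 0.72. Igf1 correlated with the fibroblast sum at 0.52, 0.80 and 0.68 and with the macrophage sum at 0.51, 0.63 and 0.72, and Igfbp7 with the pericyte sum at 0.76, 0.83 and -0.11. For Igfbp7 the fibroblast sum gave 0.69, 0.62 and 0.52 and the adipocyte sum 0.30, 0.86 and 0.02. For Igfbp3 the adipocyte sum gave 0.07, 0.68 and -0.73 and the macrophage sum -0.04, 0.26 and -0.73. The colon epithelium sum gave 0.18, 0.23 and 0.68 for Igfbp3. These values are on a log scale and share library depth and scaling. The endothelial sums of Colon 26 tumors of 800 mm3, 123 to 164 CPM, were below those of CT-26, 183 to 224 CPM, while Igfbp7 was higher in Colon 26. The part of any of these cell types in the members' levels was not tested.

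With tumor growth few values moved. From 100 to 400 mm3 in CT-26, edgeR called no member and 0% of all genes, and DESeq2 called 0 members. Igf1r and Igfbp4 had an unadjusted p under 0.05, as did 3356 of all 15104 genes tested. From 100 to 800 mm3 in CT-26 edgeR called no member and 0% of all genes, and DESeq2 called 0 members. Igfbp5 alone of the members had an unadjusted p under 0.05, against 1610 of all 15298 genes tested. From 100 to 400 mm3 in Colon 26 edgeR called no member, against 0.0131% of all genes, and DESeq2 called 0 members. Igf2r and Igfbp5 had an unadjusted p under 0.05, as did 1929 of all 15241 genes tested. The largest log2 differences of these 3 comparisons were -0.98 for Igfbp5 from 100 to 800 mm3 in CT-26 (adjusted p = 0.42) and -0.86 for Igfbp5 from 100 to 400 mm3 in Colon 26 (adjusted p = 0.38). Without the first Colon 26 tumor of 400 mm3, Igfbp5 was called lower from 100 to 400 mm3 (-1.25, adjusted p = 0.025), as was Igf2 (-1.59, adjusted p = 0.096). That fit called 391 of all genes, as given above for H19. Without the fourth Colon 26 tumor of 800 mm3, Igfbp5 was called lower from 100 to 800 mm3 (-1.21, adjusted p = 0.091). With all tumors kept, Igf2, H19 and Igf2r had an unadjusted p under 0.05 from 100 to 800 mm3 in Colon 26. So did 3187 of all 15404 genes tested. The change of the model difference from 100 to 800 mm3 was called for 0 members, against 0.0308% of all genes, and for 0 by DESeq2. There Igf2r alone of the members had an unadjusted p under 0.05, against 2031 of all 16238 genes tested.

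The other genes of the pathway were taken from lists by role, 54 in all. The lists were chosen with earlier results of these data known, so their counts beside those of all genes are a description only. Between models 10 of 30 tested were called in culture (7 higher and 3 lower in Colon 26), 16 of 40 at 100 mm3 (12 and 4), 13 of 40 at 400 mm3 (10 and 3) and 13 of 41 at 800 mm3 (10 and 3), against 22.9%, 13.2%, 14.3% and 14.1% of all genes. Their median log2 differences were 0.45, 0.40, 0.21 and 0.41, with 0.01, -0.00, 0.03 and -0.01 over all genes tested. From culture to tumor 13 of 35 were called in CT-26 (11 higher and 2 lower) and 18 of 40 in Colon 26 (14 and 4), against 32.2% and 26.9% of all genes, so the count in CT-26 was near the background. Those called higher stand against 22.2% and 20.8% of all genes called higher, and those called lower against 10.1% and 6.11%. The medians from culture to tumor were 0.40 and 0.30, against 0.06 and 0.05 over all genes. Listed genes at the detection limit in culture passed the filter only through the tumors. These counts and medians from culture to tumor therefore support nothing further. Called counts by list, in culture and at 100, 400 and 800 mm3 in turn, were 3 of 7, 3 of 8, 3 of 8 and 3 of 9 for receptors and substrates. They were 2 of 5, 6 of 13, 4 of 13 and 6 of 13 for imprinted growth genes, and 0, 1, 1 and 1 of 10 for downstream kinases and factors. For the Igf2 mRNA binding proteins they were 1 of 3 in culture and 0 of 2 at each tumor size. From 100 to 800 mm3 in Colon 26, Pappa and Peg3 were called lower, 2 of 40 tested against 1.33% of all genes, with log2 differences of -1.31 (SE 0.33, adjusted p = 0.066) and -1.09 (SE 0.27, adjusted p = 0.069). In the other comparisons of size 0 of the 36 to 39 tested were called.

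Of the 9 proteases of binding proteins and their inhibitors, 4 of 5 tested were called between the cultures, and 6, 5 and 3 of 8 in tumors of 100, 400 and 800 mm3, against the same shares of all genes. As with the other lists, these counts describe genes chosen with earlier results known and show no enrichment. Htra1, a secreted serine protease that cleaves several binding proteins, was 14.3 ± 1.07 in CT-26 and 238 ± 4.23 CPM in Colon 26 cultures (SD, n = 3). Its log2 difference was 4.11 in culture and 4.61, 4.33 and 4.57 in tumors of 100, 400 and 800 mm3 (adjusted p from 2.1e-19 to 1.4e-06). Adam12, a metalloprotease that cleaves IGFBP3 and IGFBP5, was higher in Colon 26 by 4.67 in culture and by 1.51, 1.36 and 1.39 in the tumors (adjusted p from 4.2e-13 to 3.9e-04). Pappa2, a protease of IGFBP5, was lower in Colon 26, with log2 differences of -2.49 in culture and -2.50, -2.39 and -2.09 in the tumors, at group means of 0.196 to 1.23 CPM. Stc2, an inhibitor of PAPP-A, was called higher in Colon 26 in culture by 3.27 and at 100 and 400 mm3 by 1.07 and 1.64. The value was 0.65 at 800 mm3 (adjusted p = 0.052), which is under the fold needed for a call. Pappa, which encodes PAPP-A, was called higher in Colon 26 at 100 mm3 by 2.13 (SE 0.52, adjusted p = 0.0084) and at 400 mm3 by 2.94 (SE 0.99, adjusted p = 0.039), and the value at 800 mm3 was 0.80 (SE 0.48, adjusted p = 0.2). Mmp2, a matrix metalloprotease, was called at 100 mm3 alone, at 1.22 (SE 0.16, adjusted p = 2.6e-04).

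Of the 17 imprinted growth genes, Meg3, a maternally expressed noncoding RNA, was called higher in Colon 26 tumors by 1.55, 1.79 and 1.81 on the log2 scale at 100, 400 and 800 mm3 (adjusted p = 7.7e-05, 0.019 and 1.8e-04). Peg10 was called higher at all 3 sizes, Peg3 at 100 and 400 mm3, Cdkn1c at 100 and 800 mm3, and Ndn and Plagl1 at 800 mm3, at group means no higher than 4.29 CPM. Kcnq1ot1 was called lower in Colon 26 at 100 mm3, with a log2 difference of -1.02 (adjusted p = 0.002), and Phlda2 was called higher in the Colon 26 cultures. From culture to tumors of 100 mm3, 6 of 9 imprinted genes were called in CT-26, all higher, and 11 of 14 in Colon 26, 9 of them higher. Of all genes, 32.2% and 26.9% were called in either direction, and 22.2% and 20.8% were called higher. Genes of this list at the detection limit in culture passed the filter only through the tumors, so these counts support nothing further.

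Among adaptors, Gab1 was higher in Colon 26 by 7.45 in culture and by 2.0, 2.61 and 2.03 in the tumors on the log2 scale. Grb14, an adaptor that inhibits the insulin receptor, was within 3 counts in the CT-26 groups other than tumors of 400 mm3, and Colon 26 was at least 76.7-fold higher in culture, at least 124-fold at 100 mm3 and at least 118-fold at 800 mm3. Ghr, the growth hormone receptor, was lower in Colon 26, with log2 differences of -1.08 in culture and -1.96, -2.47 and -2.47 in the tumors. Pik3r1, a regulatory subunit of PI3 kinase, was called lower in Colon 26 at all 3 tumor sizes, with log2 differences of -1.34, -1.39 and -1.33, and was the only one of 10 downstream kinases and factors called between models. In culture its difference was -0.93 and was not called. Igf2bp3, which binds Igf2 mRNA, was lower in Colon 26 cultures, with a log2 difference of -5.43 (adjusted p = 9.1e-13). The other secreted carriers were not measurable, with Igfbp1 at 0 counts in all libraries, Igfbp2 at no more than 9 counts, Igfals 3 and Igfbpl1 1.

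**Figure D5:**
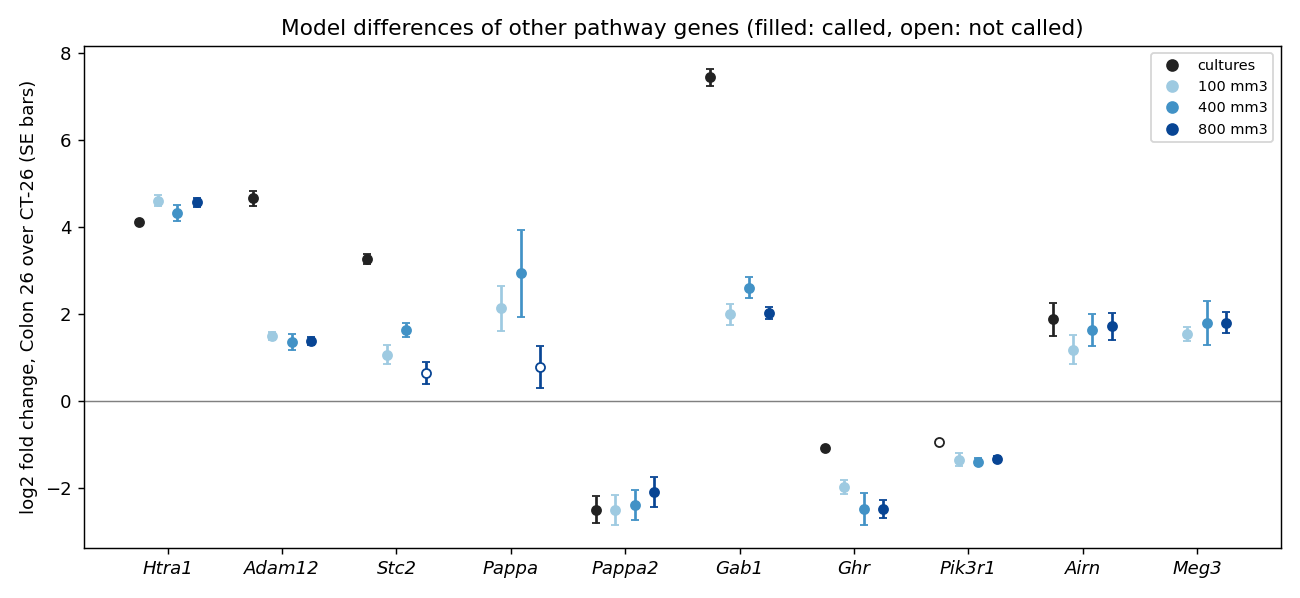
Log2 fold change of Colon 26 over CT-26 from edgeR for named pathway genes in culture and in tumors of 100, 400 and 800 mm3, with bars of 1 SE and filled points called. Htra1 lies above 4 in all 4 comparisons, Adam12 and Gab1 are above 0 in each, and Pappa2 and Ghr are below 0. Pappa and Meg3 were not tested in culture.

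The genes of most similar pattern to a member were sought by Pearson correlation of log2 CPM over the 24 tumors, among 11521 or 11522 genes with a mean count of at least 100. The points share library depth, scaling and, within a model, the line, and nothing is read from them about function or control. For Igf1 the nearest was Selenop (r = 0.82), and among the nearest to H19 were Fhl1 (0.92) and Nrap (0.91), the last a protein of striated muscle. For Igf1r it was Xpo7 (0.93), for Igfbp5 Hdgfl3 (0.87) and for Igfbp7 Lama4, a laminin chain of vessel basement membranes (0.97). For Igfbp3 it was Gpihbp1, a protein of capillary endothelium (0.90), which also held within CT-26 (0.89) and within Colon 26 (0.94).

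For Igf2r and Igfbp4 the pattern over both models was not always that within a model. The nearest gene to Igf2r was Grb14 (r = 0.98), with 0.88 within CT-26 and -0.19 within Colon 26. The next was Nid1 (0.97), with 0.71 and 0.60. The nearest to Igfbp4 was Chtf8 (0.77), with 0.89 within CT-26 and 0.0665 within Colon 26. Igfbp6 was nearest to Cyb5r3 (0.98), which also held within CT-26 (0.82) and within Colon 26 (0.85).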

How the data were processed

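Poly-A RNA-seq libraries of 6 cultures and 24 tumors of CT-26 and Colon 26 were compared, with groups from the labels and replicates numbered in accession order. The authors deposited gene counts estimated with Array Studio on Ensembl R78 gene models, of which 22.6% of the non-zero values are not whole, and these expected counts were rounded. The authors also deposited FPKM values, which were used only for levels between genes. Aligner, genome build and strand handling are not given in the sources used here. The submitters' notes name DESeq2 1.24.0. No column of single libraries was left unused.

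Counts were normalized by TMM, filtered with filterByExpr and tested with edgeR 4.0.16 (R 4.3.3, limma 3.58.1), in each comparison on its own groups, with Benjamini-Hochberg adjustment. The interaction of model with culture or size was tested in the same way. CPM used TMM over all 30 libraries. The limit of detection was taken as 3 counts per library, which covers counting error only. Alternatives were DESeq2 1.42.0, library size scaling, no filter, all libraries in 1 fit, each replicate left out, and, chosen after seeing the data, leaving out muscle-rich tumors. The procedure was tested on simulated data. All 10 members were named. Of the other pathway genes only some of those called in a comparison described were named, and counts cover whole lists. The members and lists were chosen with earlier results of these data known. GENCODE M21 held 52207 of 53431 identifiers (97.7%), and the promoters and miRNAs are of RefSeq GRCm38.p6, where 9 of 10 members had a promoter. Figures used matplotlib 3.10.9. Some of the genes nearest in pattern to a member are not reported here.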

Additional observations from a re-analysis of the deposited data

Results flagged for a closer look

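Of 60 groups of 4 tumors examined gene by gene, 7 held a sample far from the other 3 by Dixon's ratio, where chance gives about 1 in 20 groups. H19 accounted for 4 of them, at 16.4 CPM in the fourth CT-26 tumor of 400 mm3, 11.5 CPM in the third CT-26 tumor of 800 mm3, 55.0 CPM in the first Colon 26 tumor of 400 mm3 and 6.84 CPM in the second Colon 26 tumor of 800 mm3. The muscle sums of these tumors were 408, 339, 3400.04 and 3.26 CPM, and their part was not tested. Igf2 was high, at 0.556 CPM, in the same CT-26 tumor of 400 mm3. Igfbp5 was high, at 37.1 CPM, in the second Colon 26 tumor of 100 mm3, which had a muscle sum of 1774 CPM. Igf1r was low, at 132 CPM, in the third Colon 26 tumor of 100 mm3.

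The difference between models changed from culture to tumors of 100 mm3 for 2 of 10 members by the interaction test in edgeR. In that test 17.6% of all genes were called, so the count was near the background. The change was -1.84 (SE 0.19, adjusted p = 3.7e-06) for Igfbp4, which was higher in Colon 26 in culture and overlapped in tumors. It was -1.11 (SE 0.15, adjusted p = 3.2e-05) for Igfbp6, which was slightly higher in Colon 26 in culture and lower in tumors.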

How the results depend on the processing

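No paired analysis was possible because the labels carry no replicate numbers. Of 177 alternatives for the member counts, 164 stayed within 1.5 times the count given. Between models at 100 mm3 the 0 members called became 3 without the muscle-rich tumors (H19, Igf2r and Igfbp6). At this size that setting kept only replicates 1 and 3 of each model. The count ran from 0 to 2 with each replicate left out, 2 being without CT-26 replicate 2. At 400 mm3 1 became 2 without the fourth CT-26 tumor, the range being 1 to 2. In Colon 26 from 100 to 400 mm3 0 became 1 without the muscle-rich tumors and ran from 0 to 3, with 3 without the first tumor of 400 mm3 (H19 at -3.20, Igf2 and Igfbp5). From 100 to 800 mm3 1 became 0 without the muscle-rich tumors and with all 30 libraries in 1 fit, and ran from 0 to 1. For the change of the model difference from culture to tumor, 2 became 4 with DESeq2 and ran from 1 to 3, with 1 without the first CT-26 tumor of 100 mm3. The cause was not tested.

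H19 turned direction between models, from 1.74 to -1.21 at 400 mm3 without the first Colon 26 tumor, and from -0.72 to 0.56 at 800 mm3 without the third CT-26 tumor and without the muscle-rich tumors. With each replicate left out, its range was -1.21 to 4.40 at 400 mm3, -1.95 to 0.56 at 800 mm3 and -3.20 to 0.13 from 100 to 400 mm3 in Colon 26. From 100 to 400 mm3 in Colon 26 it went from -0.24 to 0.12, 0.11 and 0.13 without replicate 2, 3 or 4 of 400 mm3. None of the values of turned direction was called. Library size scaling and the filter turned no direction of a member that passed the adjusted p.

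Counts over all genes moved by more than 1.5 times in the comparisons of size. In CT-26 the 0 calls from 100 to 400 mm3 became 162 with DESeq2 and 379 with all libraries in 1 fit, and those from 100 to 800 mm3 became 39 and 92. In Colon 26 the 2 calls from 100 to 400 mm3 became 34 and 25, and the 205 from 100 to 800 mm3 became 309 and 100. For the change of the model difference from 100 to 800 mm3 5 became 114 and 39, and of the 5 calls 2 were higher, against 0 of 3 with library size scaling. Single libraries moved these counts too. With each replicate left out they ran from 0 to 335 in CT-26 from 100 to 400 mm3 (335 without the fourth tumor of 400 mm3 and 144 without the second of 100 mm3), from 0 to 2 in CT-26 from 100 to 800 mm3, from 0 to 391 in Colon 26 from 100 to 400 mm3 (391 without the first tumor of 400 mm3) and from 2 to 128 for the change from 100 to 800 mm3 (128 without the first CT-26 tumor of 800 mm3 and 51 without the first of 100 mm3). Without the muscle-rich tumors the counts from 100 to 400 mm3 were 60 in CT-26 and 251 in Colon 26, and 114 from 100 to 800 mm3 in Colon 26. At 800 mm3 2192 calls between models became 3469 without the filter. Depth limits Igf2 throughout and Igf1, H19, Igfbp3, Igfbp5 and Igfbp7 in culture, where the filter left them out of edgeR's test between models and DESeq2 called Igfbp3 alone of them, at 3 to 5 counts in CT-26 and 0 in Colon 26.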
